A study of Mus musculus with 35 samples.

Results

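SRSF4 and SRSF6 are close paralogs among the SR proteins, and their RNA contacts in mouse P19 embryonal carcinoma cells were compared library by library. The members were the 3 libraries labelled SRSF4 and the 3 labelled SRSF6, chosen by label, 6 of 35 samples in the series. Contacts were mapped by iCLIP, in which ultraviolet light links a protein to the RNA it touches, the protein is purified, and the nucleotide at which reverse transcription stopped is read as the cross-linked position. Each cell line carried a bacterial artificial chromosome (BAC) with a mouse gene fused to GFP, and the same anti-EGFP antibody served for SRSF4-GFP and SRSF6-GFP. The lines were stable and clonal, were selected with Geneticin and by GFP sorting, and also kept their untagged endogenous copies of both genes. Cells were untreated other than by the irradiation. The other groups were lines with tagged SRSF1, SRSF2, SRSF3, SRSF5, SRSF7 or the export receptor NXF1, and a control expressing GFP with a nuclear localization sequence (GFP-NLS), for which 1 pooled file was used. The study calls the iCLIP replicates biological. The sources used here do not say whether they came from separate cultures, so a p-value covers the spread among these libraries.

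SR proteins bind pre-mRNA and mRNA, where they define exons, help assemble spliceosomes and accompany mRNA through processing and nuclear export. SRSF4 and SRSF6 share a canonical RNA recognition motif, a pseudo-RNA recognition motif, and a C-terminal domain rich in arginine and serine that is phosphorylated by SR protein kinases. Both are known to contact purine-rich exonic enhancer sequences and both move between nucleus and cytoplasm.

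A tag is 1 unique cDNA at a position that the authors listed as a significant cross-link site, and CPM is tags per 1000000 listed tags of the library. The SRSF4 libraries held 108216, 1266898 and 159383 tags in replicates 1 to 3, and the SRSF6 libraries 2323026, 1155384 and 2118267. Thus only replicate 2 of SRSF4 had a depth like that of SRSF6, and 3615, 10931 and 5177 genes were listed in the SRSF4 libraries against 12345, 10484 and 12035 in those of SRSF6. The control pool held 21880 tags, so that 1 control tag is 45.7 CPM. The share of tags in regions that also held control tags was 63.5%, 17.5% and 46.4% for SRSF4 and 13.1%, 16.7% and 14.98% for SRSF6, high in the shallow SRSF4 libraries. The SRSF4 libraries were sequenced in a 2014 run and the SRSF6 libraries in a 2013 run, per the file headers, so that run and protein cannot be told apart within the 6 libraries. Markers of undifferentiated P19 cells summed to 323, 1018 and 113 CPM for SRSF4 and 1090, 985 and 840 CPM for SRSF6, with 7 of 8 listed and Dppa5a at 0 in the 6 libraries. Markers of differentiated cells summed to between 0 and 12.5 CPM, with 4 of 8 listed.

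The tagged gene itself separated the groups. Srsf4 transcripts (chr4:131429532-131457640, plus strand, mm9) held 989, 2203 and 1675 CPM in the SRSF4 libraries and 124, 124 and 94.9 CPM in those of SRSF6. Srsf6 transcripts (chr2:162757264-162762857, plus strand) held 148, 714 and 540 CPM in the SRSF4 libraries and 2000, 2229 and 2097 CPM in those of SRSF6. The groups did not overlap for either gene, and each paralog's own mRNA was higher in its own libraries. The log2 difference, SRSF4 minus SRSF6, was 3.79 ± 0.998 (SE) for Srsf4 (limma, adjusted p = 0.0647) and −2.401 ± 1.18 for Srsf6 (adjusted p = 0.274), neither past the threshold of 0.05. Both are the genes on the BACs, so these levels check the labels, and extra gene copies and binding of a protein to its own mRNA cannot be told apart in them.

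Some genes beside the tagged ones were higher in the same libraries. Within 100000 nt of Srsf4, leaving out the gene itself, tags summed to 832, 2157 and 947 CPM for SRSF4 and 74.9, 80.5 and 94.9 CPM for SRSF6, and at most 336 CPM in any other library. Mecr, which encodes a mitochondrial enoyl-CoA reductase and lies 5831 nt from Srsf4, held 471, 1688 and 722 CPM against 9.47, 1.73 and 4.72 CPM. Mecr was higher for SRSF4 by 7.58 ± 0.94 on the log2 scale (limma, adjusted p = 4.82e-06), and its call was kept in all 17 alternatives that tested it, one of which rests on a single SRSF4 library. Gm12992, a noncoding transcript that overlaps Srsf4 on the opposite strand, held 296, 164 and 176 CPM against 3.44, 0 and 7.55 CPM (limma, adjusted p = 9.82e-05). Tags were assigned by strand, and all of the Gm12992 tags were intronic. Epb4.1, which encodes a membrane skeleton protein and lies 21688 nt from Srsf4, did not pass, with 64.7, 181 and 37.6 CPM for SRSF4 and 111, 123 and 126 CPM for SRSF6 (limma, log2 difference −0.61 ± 1.02, adjusted p = 0.704). Its SRSF6 libraries lay within the range of the SRSF4 libraries.

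Within 100000 nt of Srsf6 the sums were 320, 197 and 320 CPM for SRSF6 and 18.5, 8.68 and 0 CPM for SRSF4, with at most 67.4 CPM in another library and 183 CPM in the control pool. Ift52, an intraflagellar transport gene 80233 nt away, held 171, 104 and 145 CPM for SRSF6 and 0, 7.10 and 0 CPM for SRSF4 (limma, adjusted p = 0.0296). Mybl2, a cell cycle transcription factor gene 117566 nt from Srsf6, held 1131, 1122 and 1127 CPM for SRSF6 and 18.5, 63.2 and 0 CPM for SRSF4. Mybl2 was lower for SRSF4 by −6.10 ± 1.12 on the log2 scale (limma, adjusted p = 0.00454), and 58.6% of its SRSF6 tags were intronic. The sources used here do not state how far the BAC extends. How far BAC copies account for the tags of these neighbours was not tested.

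Among tags on mRNAs, a larger share lay on 3′ UTRs for SRSF4 than for SRSF6, whereas the share of all tags did not separate the paralogs. Of all tags, 5.23%, 12.9% and 8.65% were on 3′ UTRs for SRSF4 and 7.81%, 8.39% and 6.25% for SRSF6. These ranges overlapped (difference 1.45 percentage points, exact permutation test, two-sided p = 0.7). Of the tags on 5′ UTRs, coding sequence and 3′ UTRs, 28.0%, 23.1% and 27.0% were on 3′ UTRs for SRSF4 and 12.4%, 13.1% and 10.4% for SRSF6. The means were 26.0% ± 2.58 (SD, n = 3) and 11.96% ± 1.37 (SD, n = 3), a difference of 14.1 percentage points (exact permutation test, two-sided p = 0.1, the smallest that 3 against 3 libraries allow). All SRSF4 libraries lay above all SRSF6 libraries, the deep replicate 2 included, and this measure was chosen after the data had been seen. Restricted to the 220 genes with at least 20 tags in each of the 6 libraries, the shares were 34.7%, 28.3% and 32.6% against 16.5%, 18.2% and 16.1%. After each library was thinned to 100000 tags and only positions that kept 2 or more tags were counted, they were 37.7%, 39.1% and 36.9% against 16.5%, 19.5% and 17.2%. The ranges did not overlap in either restriction. Thinning made the totals of listed tags equal, but the positions had been listed at the original depths, so that the part of depth was not tested.

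The other libraries set the scale of that difference. In the 16 other libraries with at least 100000 tags the 3′ UTR share of mRNA tags ran from 9.21% to 47.5%, with a median of 19.1%, and the control pool stood at 35.7%. SRSF4 thus lay above that median and SRSF6 below it. In the run that held the SRSF4 libraries, the 2 deep SRSF7 libraries were at 13.1% and 10.5%, the NXF1 libraries at 41.9% to 47.5%, and the SRSF3 libraries, which shared lanes with SRSF4, at 20.6% to 23.3%. The libraries that shared lanes with SRSF6 included, with at least 100000 tags, those labelled SRSF2 replicates 2, 4 and 5 at 9.68%, 22.5% and 9.21%, and the headers of replicates 2 and 5 name SRSF1. The part of lane and run in the difference was not tested. Likeness between the SRSF4 libraries and the SRSF3 libraries on their lanes, as a Spearman correlation of thinned tags over regions, was 0.176 to 0.214.

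**Figure D1:**
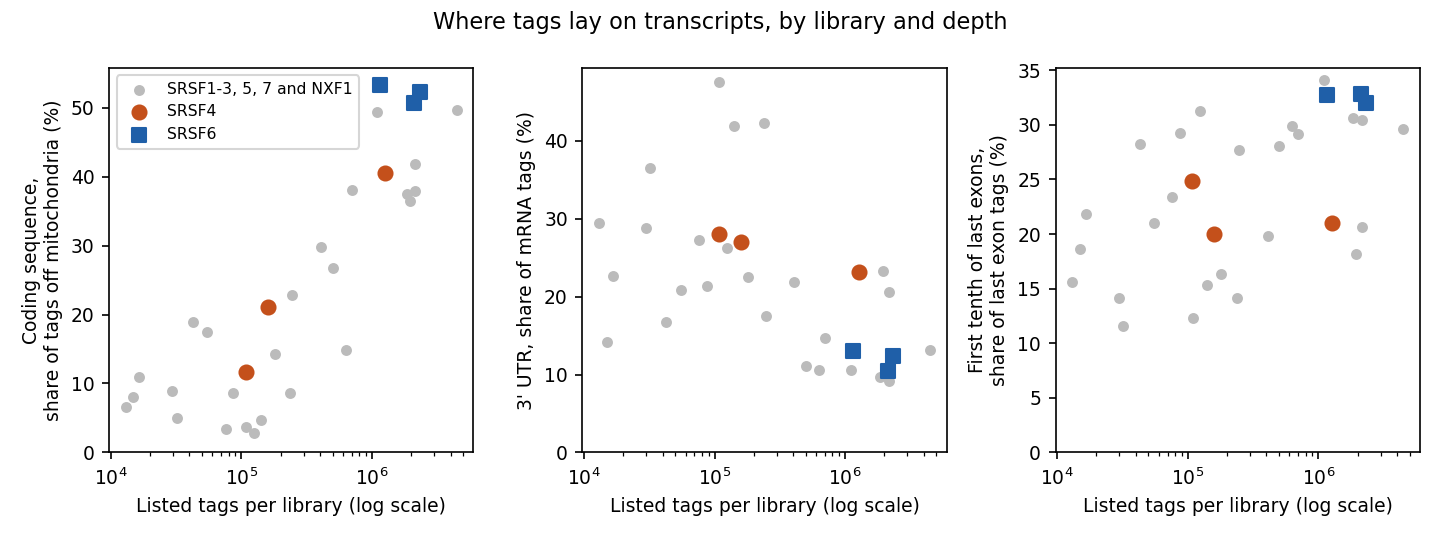
Share of tags in coding sequence, share of mRNA tags in 3′ UTRs and share of last exon tags in the first 10% of last exons (vertical axes, %) against listed tags (horizontal axis, log scale), 1 point per library. The coding share of SRSF4 goes from 11.6% in its shallowest library to 40.5% in its deepest, while its 3′ UTR share stays between 23.1% and 28.0%, above the SRSF6 libraries at 10.4% to 13.1%.

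Last exons showed the same order. The total here was tags on exons of 1 coding transcript per protein-coding gene, in transcripts with more than 1 exon. Last exons held 27.2%, 28.7% and 30.2% of these tags for SRSF4 and 20.6%, 21.4% and 17.4% for SRSF6, without overlap (difference 8.94 percentage points, exact permutation test, two-sided p = 0.1). Within last exons, the first 10% of the length, next to the splice junction, held 24.9%, 21.0% and 20.05% of the tags for SRSF4 and 32.03%, 32.7% and 32.8% for SRSF6. The last 50% held 30.7%, 36.2% and 37.3% for SRSF4 and 23.5%, 23.2% and 23.0% for SRSF6 (difference 11.5 percentage points, exact permutation test, two-sided p = 0.1). SRSF6 tags were thus more concentrated at the 5′ end of last exons than SRSF4 tags, which declined less steeply. In the 16 other libraries with at least 100000 tags the first 10% held 12.3% to 34.1%, with a median of 27.9%. The SRSF3 libraries on the SRSF4 lanes were at 18.2% to 20.7%, and the deep SRSF7 libraries of that run at 29.6% and 34.1%. SRSF2 replicates 2, 4 and 5, on the SRSF6 lanes, were at 30.6%, 16.3% and 30.4%. The part of lane and run was not tested.

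**Figure D2:**
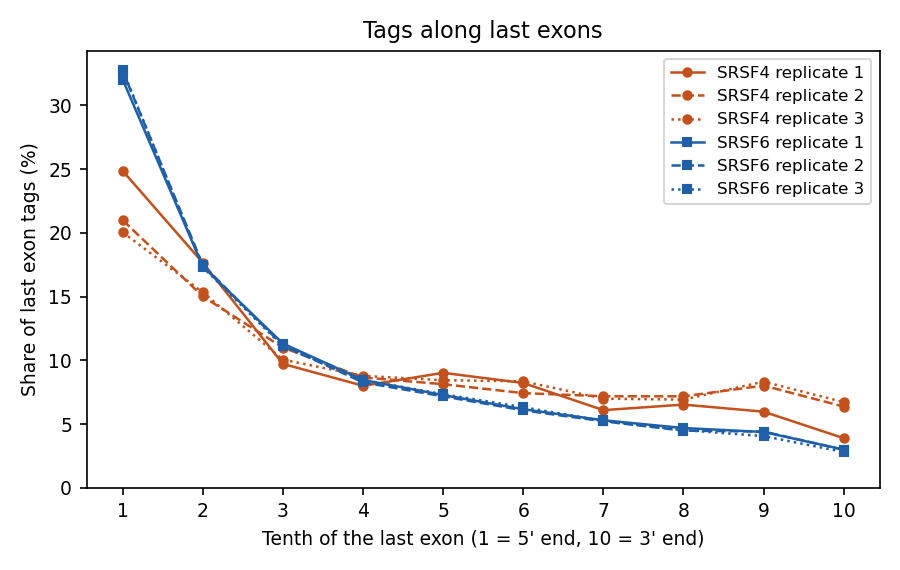
Share of last exon tags (vertical axis, %) in 10 equal parts of last exons from the 5′ end to the 3′ end (horizontal axis), 1 line per library. The 3 SRSF6 lines start at 32.03% to 32.8% and nearly coincide, and the 3 SRSF4 lines start at 20.05% to 24.9% and lie above SRSF6 in parts 5 to 10.

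In the deep SRSF4 library the higher 3′ UTR share was seen in many genes, whereas over all 6 libraries most gene ranges overlapped. For 2496 protein-coding genes with at least 50 mRNA tags in SRSF4 replicate 2 and in each SRSF6 library, the median 3′ UTR share was 17.6% in SRSF4 replicate 2 and 8.40%, 8% and 6.47% in the SRSF6 libraries. SRSF4 replicate 2 was above all SRSF6 libraries in 1746 of these genes (70.0%) and below all of them in 131 (5.25%). In the 152 genes with at least 20 mRNA tags in each of the 6 libraries, the ranges did not overlap with SRSF4 higher in 37 genes (24.3%) and with SRSF6 higher in 1 (0.658%). Many of the 152 are replication-dependent histone genes, whose copies are alike, so they do not all count as independent genes. Most of the 37 are not histone genes. The median over the 152 genes of the mean share was 24.6% for SRSF4 and 17.0% for SRSF6. The median of the difference within a gene was 3.24 percentage points. With tags pooled over the 220 genes above, the difference was 14.9 percentage points, larger than in a typical gene. How far strongly tagged genes set the pooled value was not tested.

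Genes with the widest gaps are named here after their values were seen. For Hmgb2, a chromatin protein gene, 75%, 74.7% and 59.8% of mRNA tags were on the 3′ UTR for SRSF4 and 23.9%, 36.7% and 18.3% for SRSF6. For Dek, which encodes another chromatin protein, the shares were 72.1%, 68.9% and 70% against 30.98%, 30.7% and 21.8%. For Pfdn4, a subunit of the prefoldin chaperone, they were 85%, 72.4% and 67.4% against 24.7%, 39.2% and 30.2%. The groups did not overlap in any of these genes, although the same mRNAs also held tags outside the 3′ UTR for both proteins. SRSF4 replicate 1 held only 32, 43 and 20 mRNA tags on Hmgb2, Dek and Pfdn4, so its shares rest on few tags. The SRSF6 libraries held 258 to 1827 mRNA tags on them. Eif2s2, a translation initiation factor subunit, had 44.4%, 59.1% and 57.3% against 17.6%, 19.2% and 19.3%. Smaller gaps without overlap occurred in Actb, the cytoskeletal actin gene, with 47.9%, 36.6% and 53.4% against 29.2%, 28.5% and 27.8%, and in Ncl, the nucleolin gene, with 25.4%, 21.4% and 22.6% against 10.2%, 9.83% and 7.90%. Other mRNAs did not separate: Npm1, the nucleophosmin gene, had 34.3%, 59.5% and 50.8% against 37.1%, 41.6% and 29.1%.

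**Figure D3:**
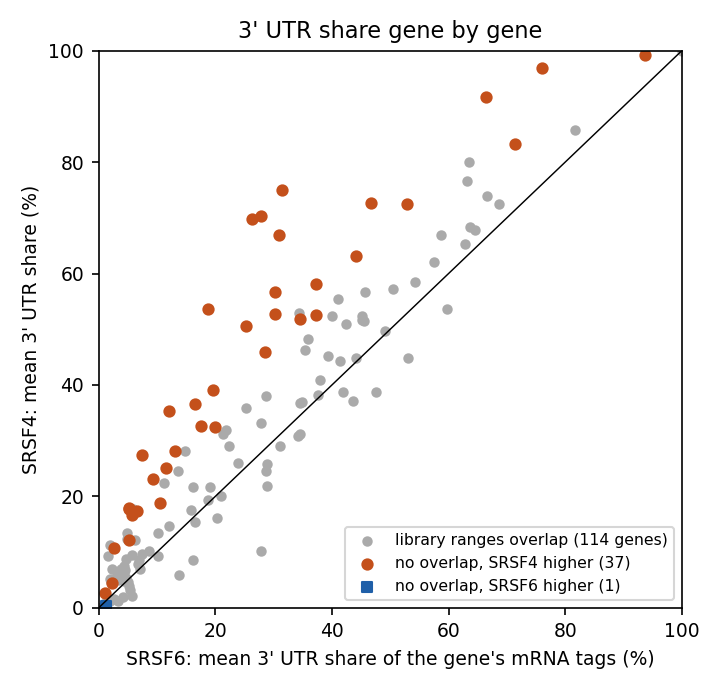
Mean 3′ UTR share of a gene's mRNA tags over the 3 SRSF4 libraries (vertical axis, %) against that over the 3 SRSF6 libraries (horizontal axis, %), for 152 genes. Of the points whose library ranges do not overlap, 37 lie above the line of equality and 1 below it.

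Other shares separated the proteins less well or followed depth. Coding sequence held 11.6%, 40.5% and 21.1% of tags for SRSF4 and 52.2%, 53.3% and 50.7% for SRSF6 (difference −27.7 percentage points, exact permutation test, two-sided p = 0.1). The 2 shallow SRSF4 libraries were far below the deep one, and with replicate 2 alone the difference was −11.6. Intergenic positions made up 53.2%, 20.4% and 37.1% of SRSF4 tags and 15.2%, 16.2% and 15.7% of SRSF6 tags, against 63.3% in the control pool. Introns held 10.6%, 10.7% and 9.88% against 11.4%, 9.18% and 12.5%, with overlapping ranges (exact permutation test, two-sided p = 0.6). The share of coding tags within 50 nt of an exon end was also not separable, at 48.5% ± 4.36 and 47.5% ± 1.58 (SD, n = 3, exact permutation test, two-sided p = 0.7).

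Summed over genes, few differences passed the test. Of 6026 genes tested with limma, 16 (0.266%) were higher for SRSF4 and 8 (0.133%) higher for SRSF6 at an adjusted p under 0.05, and 1097 had an unadjusted p under 0.05. The median log2 difference over all tested genes was −1.23 when libraries were scaled to their totals and −0.04 with median-ratio scaling, so that gene differences are to be read relative to the former. With median-ratio scaling 149 genes were called, 117 higher for SRSF4 and 32 higher for SRSF6. The library ranges did not overlap with SRSF4 higher in 258 genes (4.28%) and with SRSF6 higher in 1927 (32.0%). The deep SRSF4 library alone was above all SRSF6 libraries in 1598 genes (26.5%) and below all of them in 2266 (37.6%). The number called fell from 24 to between 5 and 9 without SRSF4 replicate 1 (5), SRSF4 replicate 3 (6), SRSF6 replicate 1 (7), SRSF6 replicate 2 (7) or SRSF6 replicate 3 (9). It fell least without SRSF4 replicate 2, the deep library, so that the calls hung more on the shallow SRSF4 replicates 1 and 3. With run year as a term, 25 genes were called, 24 higher for SRSF4 and 1 higher for SRSF6, and 8 of the 24 reported genes were among them. With SRSF4 replicate 2 alone against SRSF6, 1 gene was called, Mecr, in a fit that takes the lone library to vary like those of the other proteins.

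Several of the genes higher for SRSF4 were small RNAs or carried their tags at a single spot. A U6 spliceosomal RNA copy on chromosome 17 held 129, 41.8 and 289 CPM for SRSF4 and was listed at 0 in the SRSF6 libraries (limma, adjusted p = 0.0102). Mir1983 held 314, 85.2 and 201 CPM against 3.01, 5.19 and 0 CPM (limma, adjusted p = 0.00478). The 5S ribosomal RNA copies n-R5s151 and n-R5s211 were also higher for SRSF4, with 457 and 320 CPM in the control pool. U6 and 5S copies are nearly identical in sequence, so the copy is uncertain. A U2 copy held 314, 9.47 and 43.9 CPM against 3.87, 0 and 2.36 CPM and did not pass (limma, adjusted p = 0.0502).

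Awat2, Taf1c, Igf2r and Dnase1l3, protein-coding genes higher for SRSF4, also carried most of their tags at a single spot, whereas Mecr and Grb10 did not. The SRSF4 tags of Mecr lay on 1374 positions, with 1.56% of them within 5 nt of the most tagged one. Awat2, a wax alcohol acyltransferase gene, held 628, 161 and 772 CPM for SRSF4 and 2.58, 7.79 and 8.50 CPM for SRSF6, with 99.5% of its SRSF4 tags within 5 nt of 1 intronic position and 137 CPM in the control pool. Taf1c, which encodes a factor for RNA polymerase I transcription, held 499, 88.4 and 483 CPM against 8.18, 2.60 and 11.8 CPM, with 97.5% of its SRSF4 tags within 5 nt of 1 position in its 5′ UTR and 137 CPM in the control pool. Igf2r, the receptor gene for insulin-like growth factor 2 and mannose-6-phosphate, held 961, 197 and 370 CPM against 10.8, 13.9 and 8.03 CPM, with 79.7% of the SRSF4 tags within 5 nt of 1 intronic position. These signals were higher in the shallow SRSF4 libraries than in replicate 2, which still lay above all SRSF6 libraries. Dnase1l3, a deoxyribonuclease gene, held 351, 103 and 213 CPM against 12.1, 9.52 and 0.944 CPM, 93.6% of the SRSF4 tags within 5 nt of 1 position. Grb10, an imprinted gene for a signalling adaptor, held 148, 414 and 107 CPM against 6.89, 5.19 and 5.19 CPM, its SRSF4 tags spread over 441 positions, with 31.1% of the tags coding (limma, log2 difference 5.02 ± 1.16, adjusted p = 0.0368).

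The 8 genes higher for SRSF6 were protein-coding, as were 5534 of all 6026 tested genes, and were tagged at many positions. The number of positions also rises with depth, which was lower in 2 of the 3 SRSF4 libraries. Mtap7d3, a microtubule-associated protein gene, held 149, 143 and 78.4 CPM for SRSF6 and was listed at 0 in the SRSF4 libraries (limma, adjusted p = 0.00267), with 91.9% of its tags coding. Pdzrn3, a ubiquitin ligase gene, held 1068, 724 and 1058 CPM for SRSF6 and 9.24, 93.9 and 18.8 CPM for SRSF4 (limma, log2 difference −5.03 ± 0.95, adjusted p = 0.00478), with 69.8% of the SRSF6 tags intronic. Each SRSF6 library exceeded the highest SRSF4 library in both genes. Spen, a transcriptional repressor gene, held 550, 527 and 603 CPM against 0, 224 and 0 CPM (limma, adjusted p = 0.0433). Paf1, a subunit of the elongation complex of that name, held 93.8, 114 and 93.0 CPM against 0, 4.74 and 0 CPM (limma, adjusted p = 0.0387). For Spen and Paf1 the shallow SRSF4 libraries were at 0 and replicate 2 lay below all SRSF6 libraries. Below the threshold, Mki67, the proliferation marker gene, had 1042, 1149 and 1109 CPM for SRSF6 and 0, 272 and 50.2 CPM for SRSF4 (limma, adjusted p = 0.0663), and Slc9a7, Golgb1, Utp14b, Mll2 and Ankrd11 had adjusted p-values between 0.0501 and 0.107.

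A larger share of regions than of genes passed the test. Of 6649 strand-specific regions, made by merging the clusters of listed positions, 209 (3.14%) were higher for SRSF4 and 97 (1.46%) higher for SRSF6 with limma at an adjusted p under 0.05. With trimmed-mean scaling the split turned to 177 and 219, as the median over all regions moved from −0.21 to −0.99. Regions higher for SRSF6 were mainly coding, 69 of 97 (71.1%), against 2738 of all 6649 tested (41.2%). Those higher for SRSF4 were mainly intergenic, 132 of 209 (63.2%), against 25.1% of all tested, with 9 coding (4.31%). They were also narrow, with a median width of 32 nt against 337 nt for those higher for SRSF6 and 177 nt over all, and 59 of them (28.2%) held control tags against 2 (2.06%) and 11.5%. Replicate 2 of SRSF4, the deep one, was above all SRSF6 libraries in 206 of the 209 and below all of them in all 97. Over all 6649 tested regions it was above in 2870 and below in 1830. Replicate 2 took part in the calls, so its side in called regions is no separate support for them. Within 100000 nt of the tagged genes lay 19 of the 6649 tested regions, 12 of the 209 and 2 of the 97. Of the 9 tested regions of Srsf4 itself, 8 were called, higher for SRSF4. Mybl2, 117566 nt from Srsf6, lies just past that distance, and its 8 tested regions are among the 97. Without SRSF4 replicate 1, SRSF4 replicate 3, SRSF6 replicate 1, SRSF6 replicate 2 or SRSF6 replicate 3 the number called fell from 306 to 78, 75, 63, 81 and 61, and with SRSF4 replicate 2 alone it was 0 in the same kind of limma fit, with 355 at an unadjusted p under 0.05.

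Library ranges did not overlap in 1011 regions with SRSF4 higher (15.2%) and in 1392 with SRSF6 higher (20.9%). By region class, the deep SRSF4 library leaned to regions outside coding sequence, 3′ UTRs among them. It was above all SRSF6 libraries in 335 of 518 tested 3′ UTR regions (64.7%) and below all of them in 70 (13.5%). For coding regions the order was the opposite, with 707 of 2738 above (25.8%) and 1230 below (44.9%). It was above in 62.2% of intergenic regions and below in 11.6%. For noncoding exons the shares were 48.4% and 16.8%, and for introns 46.9% and 18.3%. With all 6 libraries, 3′ UTR regions did not lean. Ranges did not overlap in 61 with SRSF4 higher (11.8%) and in 59 with SRSF6 higher (11.4%). Only 2 of the 3′ UTR regions were called in each direction. Elovl6, a fatty acid elongase gene, supplied one of those higher for SRSF6, with 92.6, 123 and 118 CPM against 0, 3.16 and 0 CPM over 423 nt (chr3:129337902-129338324).

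Among coding regions higher for SRSF6, Prpf4b stood first by size. This gene encodes a kinase that phosphorylates splicing factors. Its region of 1289 nt (chr13:34975084-34976372) held 931, 1082 and 939 CPM for SRSF6 and 0, 65.5 and 0 CPM for SRSF4 (limma, log2 difference −5.68 ± 0.88, adjusted p = 2.2e-04). Of its 8 tested regions, 4 were called, all higher for SRSF6. The shift ran along its coding sequence but was not uniform, since a region of 1913 nt at chr13:34993262-34995174 held 873, 1069 and 878 CPM against 0, 392 and 289 CPM and did not pass (limma, adjusted p = 0.110).

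Further regions higher for SRSF6 are named by the same rule of size, and their genes were not tested for a shared function. Ankrd11, a chromatin regulator gene, held 568, 670 and 691 CPM against 0, 150 and 0 CPM over 2399 nt, and 3 of its 5 tested regions were called. Ddx21, a nucleolar RNA helicase gene, held 745, 991 and 637 CPM against 0, 159 and 107 CPM. Mybbp1a, which encodes a nucleolar protein, held 267, 412 and 198 CPM against 0, 18.2 and 0 CPM. In each of them the highest SRSF4 library was replicate 2 and lay below the lowest SRSF6 library. Mki67 held 129, 154 and 118 CPM against 0, 5.53 and 0 CPM, with 2 of its 6 tested regions called, and Zmynd8, a chromatin reader gene, 96.9, 115 and 93.5 CPM against 0, 11.8 and 0 CPM. All 8 tested regions of Mybl2 were called, and 5 of them were listed at 0 in each SRSF4 library. A region of 118 nt in mt-Rnr2, the mitochondrial large ribosomal RNA, held 580, 445 and 760 CPM for SRSF6 and was listed at 0 for SRSF4.

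The reference sequence of mm9 around the most tagged position of these coding regions is printed as an example. Each window is 30 nt of the transcript strand, and capitals mark GAAGA or AGAAG, the commonest pentamers around the positions of both proteins.
Prpf4b, chr13:34975736-34975765, plus: cccatccaaaAGAAGcaagtctcaagacca
Ankrd11, chr8:125417304-125417333, minus: gagtgtgcagagagatacaaggacaggaaa
Mybbp1a, chr11:72264481-72264510, plus: gaagcgaaagaaacttaaatctgagggcac
Mki67, chr7:142885010-142885039, minus: tggagccaagaaatctacatctcggggcca
Ddx21, chr10:62061375-62061404, minus: aaaccaaagagataataacagaggagcctt
Zmynd8, chr2:165638098-165638127, minus: agagcaactctcctgtcagcgAGAAGccgg
The windows of Ankrd11, Mybbp1a and Ddx21 hold 24, 21 and 21 purines of 30, and those of Prpf4b, Mki67 and Zmynd8 hold 17 each.

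The spots that were higher for SRSF4 read differently. The Taf1c region is 5 nt wide, in the 5′ UTR, and held 499, 83.7 and 483 CPM against 0, 2.60 and 2.83 CPM (limma, log2 difference 8.11 ± 1.396, adjusted p = 9.28e-04), with 137 CPM in the control pool. An intergenic spot of 5 nt on chromosome 7 held 250, 59.99 and 176 CPM against 0, 0 and 1.42 CPM. Intergenic spots of 4 nt on chromosome 10 and 2 nt on chromosome 19 held 314, 29.99 and 188 CPM against 0 in each SRSF6 library, and 194, 64.7 and 339 CPM against 0, 0 and 0.944 CPM. The control pool held 91.4 CPM at the chromosome 19 spot and 0 at those on chromosomes 7 and 10. The SRSF4 libraries exceeded those of SRSF6 in each of these regions, with the deep replicate 2 the lowest of the 3. No capitals occur in their windows.
Taf1c, chr8:122129039-122129068, minus: cggcactctggctcctttgcggccccgggg
Intergenic, chr7:151997847-151997876, minus: ctctatcacttttgctctcctggggctacc
Intergenic, chr10:44327948-44327977, plus: tcgaggcactctttctttcccggggctatc
Intergenic, chr19:11119724-11119753, plus: gcgggagatccaggaggttgcggccccggg
The chromosome 7 and chromosome 10 windows share GGGGCT, and those of Taf1c and chromosome 19 share GGCCCCGGG, letters that were looked for after these windows had been seen. Of the other named regions higher for SRSF4, the Mecr window holds GGGGCT. An intronic window on chromosome 2, with 320 CPM in the control pool, holds GGCCCCGGG. The windows of the U6 copy, of intergenic spots on chromosomes 5 and 11 and of a further spot on chromosome 10 hold neither.

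**Figure D4:**
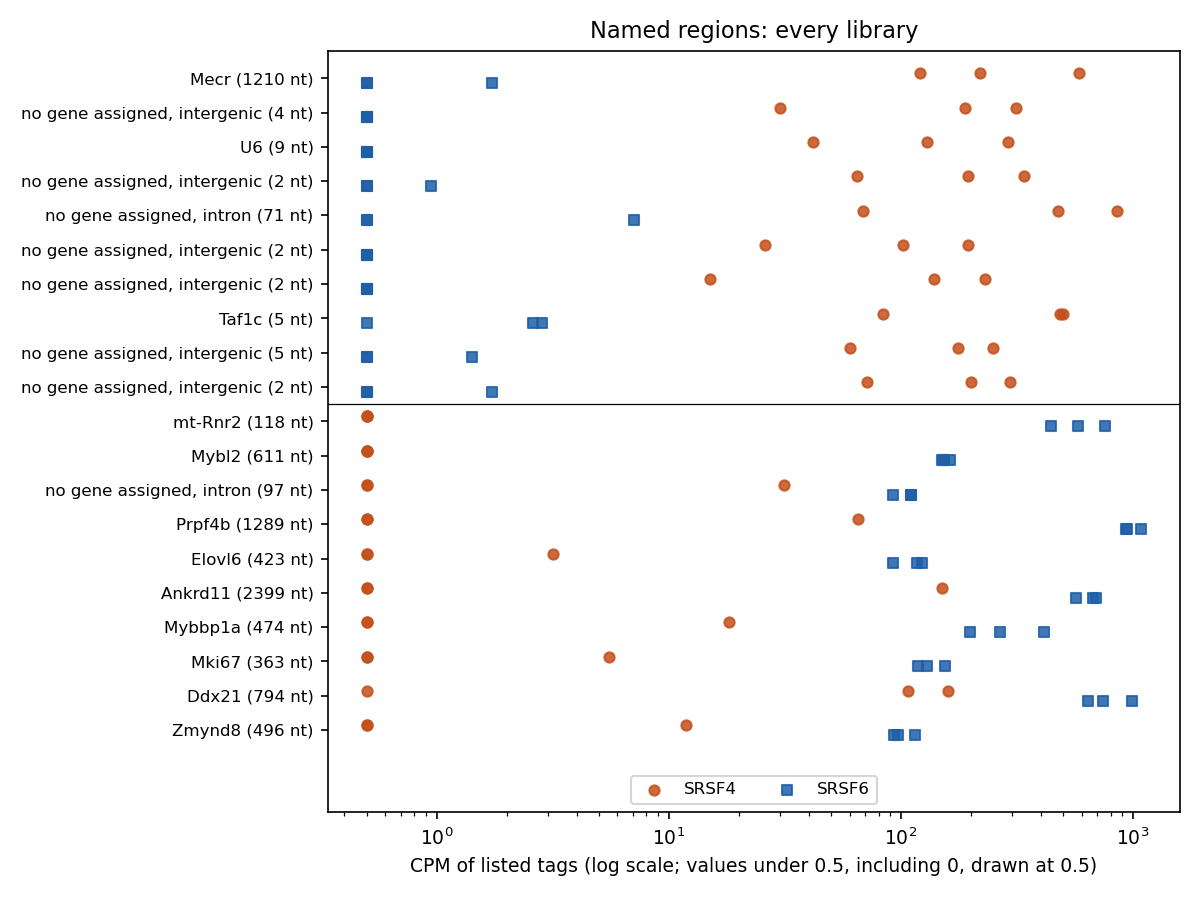
CPM of listed tags (horizontal axis, log scale, values under 0.5 drawn at 0.5) in the named regions, 1 point per library, with regions higher for SRSF4 above the line and those higher for SRSF6 below it. SRSF6 points of the upper regions lie at 7.08 CPM or less, and in the lower regions the SRSF6 libraries lie close together, between 92.5 and 1082 CPM.

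Over all windows of tested regions, searched on the transcript strand, 13.5% held GAAGA or AGAAG, which overlap in their letters. The share was 21 of 94 (22.3%) for regions higher for SRSF6 and 15 of 209 (7.18%) for those higher for SRSF4, against 21.1% of all coding regions tested and 27.9% of coding regions higher for SRSF6. GGGGCT was in 0.862% of all windows, in 9 (4.31%) of those higher for SRSF4 and in none of those higher for SRSF6, and GGCCCCGGG in 0.151%, 3 (1.44%) and none. The counts for SRSF4 include the windows from which these letters were read, and the 3 with GGCCCCGGG are all named above. These counts are thus no separate support for either run of letters. The sets differ in the class of RNA they come from, as given above.

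Around coding positions as a whole, the commonest pentamers were alike for the paralogs, and the purine share depended on how positions were weighted. In windows of 31 nt, GAAGA occurred at 16.1%, 12.8% and 15.5% of coding positions for SRSF4 and 14.1%, 15.8% and 14.4% for SRSF6. AGAAG and AAGAA came next for both proteins, and 7 of the 10 commonest pentamers were shared. None of 1024 pentamers (0.0%) passed limma at an adjusted p under 0.05, and 15 had an unadjusted p under 0.05, 12 of them lower for SRSF4. The median standard error of a log2 difference was 0.219, and no difference exceeded 0.895. AGAAA had ranges that did not overlap, 7.23%, 7.07% and 6.87% against 8.51%, 9.35% and 8.59%, as had TGATG with 9.01%, 8.11% and 9.17% against 7.10%, 7.33% and 7.37%. When only the 10000 most tagged coding positions of each library were used, 16 pentamers passed, 4 higher and 12 lower for SRSF4. SRSF4 replicate 1 had only 9335 coding positions, so that all of them entered, and SRSF4 replicate 3 had 26655. SRSF4 replicate 2 and the SRSF6 libraries had 384730 to 835851, so the selection was far stricter in them. Counting each position once, the purine share was 53.4%, 52.2% and 53.0% for SRSF4 and 53.3%, 54.0% and 53.3% for SRSF6, with overlapping ranges (difference −0.72 percentage points, exact permutation test, two-sided p = 0.3). Weighted by tags, it was 53.4%, 52.5% and 53.2% against 53.9%, 54.6% and 54.0% (difference −1.13, exact permutation test, two-sided p = 0.1). After thinning, with 2 or more tags per position, it was 53.5%, 54.8% and 54.0% against 56.5%, 56.7% and 56.9% (difference −2.61, exact permutation test, two-sided p = 0.1). In both of these weightings every SRSF4 library lay below every SRSF6 library.

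Positions with many tags were largely shared between the deep libraries, and positions as a whole were not. Of all listed positions of SRSF4 replicate 2, 21.5% to 31.7% were also listed in an SRSF6 library, and of those of an SRSF6 library, 17.0% to 23.1% in SRSF4 replicate 2. Between SRSF6 libraries the figure was 19.1% to 38.3%. Of the positions with at least 5 tags in SRSF4 replicate 2, 78.4% to 86.9% were also listed in an SRSF6 library, and of such positions of SRSF6, 76.5% to 84.7% were listed in SRSF4 replicate 2. Between SRSF6 libraries it was 83.5% to 97.1%. In regions with at least 20 tags in both libraries, the most tagged nucleotide was the same in 20.3% to 22.3% for pairs of SRSF6 libraries and in 14.6% to 15.3% for SRSF4 replicate 2 with SRSF6. The median distance between these summits was 19 to 21 nt among SRSF6 libraries and 26 to 27 nt between the proteins.

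Over 51975 regions in libraries thinned to the same total of listed tags, the Spearman correlation was 0.450 to 0.487 among SRSF6 libraries, 0.290 to 0.391 among SRSF4 libraries and 0.212 to 0.389 between them. These are descriptions over regions that share base composition and mRNA abundance. Replicate 2 of SRSF4 was as like SRSF6 (0.351 to 0.389) as it was like its own replicates (0.290 and 0.368). The mean between the paralogs, 0.288, was below that of SRSF6 with SRSF7 (0.315), of SRSF4 with SRSF1 (0.317) and of SRSF4 with NXF1 (0.302). The order was another for the deep replicate 2 of SRSF4, whose values with SRSF1 (0.301 and 0.348), SRSF7 (0.279 and 0.303) and NXF1 (0.213 to 0.279) lay below those with SRSF6.

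**Figure D5:**
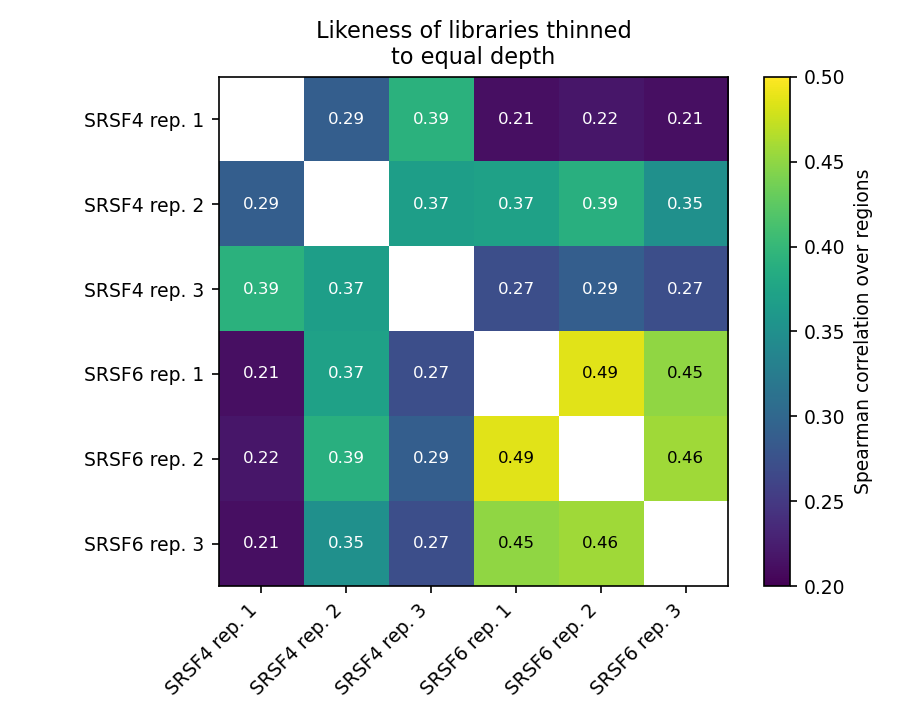
Spearman correlation of thinned tags over 51975 regions for each pair of the 6 libraries (colour scale from 0.20 to 0.50, with the value in each cell). SRSF6 pairs reach 0.45 to 0.49, and SRSF4 replicate 2 has like values with SRSF6 and with SRSF4.

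Gene groups were described by function, relative to the median log2 difference of −1.23 over all tested genes. None of the 20 lists had a member past the test in either direction, so only levels and counts at an unadjusted p under 0.05 are given. Replication-dependent histone genes had the highest median, 0.95 over 53 tested genes, and 0.49 with SRSF4 replicate 2 alone, which was above all SRSF6 libraries in 30 of them and below in 2, against 26.5% and 37.6% of all tested genes. Hist1h1d, a linker histone, held 4833, 2275 and 4499 CPM for SRSF4 and 1133, 1779 and 1696 CPM for SRSF6 (limma, adjusted p = 0.457). Histone mRNAs end without a poly(A) tail, and their copies are alike, so single copies are uncertain. Tubulin and actin genes had a median of 0.15, ribosomal protein genes one of −0.22 over 67 genes, and long noncoding and small nucleolar RNA host genes one of 0.00. Malat1, an abundant nuclear RNA in this last list, held 15099, 15469 and 23961 CPM for SRSF4 and 10705, 12989 and 17906 CPM for SRSF6, with overlapping ranges.

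Lists for RNA processing lay closer to the overall median or below it. Nuclear speckle and SR-related genes had a median of −1.50, and 8 of 25 had an unadjusted p under 0.05, all higher for SRSF6. Over all tested genes 15.5% were higher for SRSF6 and 2.7% higher for SRSF4 at that p. The count higher for SRSF6 was also 8 of 28 for chromatin regulators, 8 of 37 for core spliceosome genes, 6 of 17 for mRNA 3′ end processing, 4 of 13 for the exon junction complex and decay, and 4 of 10 for pluripotency genes. Other RNA processing lists were under the share of all genes, with 3 of 32 for hnRNP, 2 of 19 for mRNA export and 1 of 12 for SR protein genes. SR protein kinase genes had 2 of 8. Srrm2, a speckle scaffold gene, held 3954, 3959 and 3812 CPM for SRSF6 and 749, 2623 and 2347 CPM for SRSF4 (limma, adjusted p = 0.547). In SR protein kinase genes (median −1.61, 8 tested) Prpf4b as a whole held 2923, 3348 and 3038 CPM against 0, 656 and 402 CPM (limma, adjusted p = 0.120). SR protein genes themselves had a median of −1.31 over 12 genes, hnRNP genes −0.78, core spliceosome genes −1.44, mRNA export genes −1.14, and mRNA 3′ end processing and exon junction complex genes −1.96 each. The remaining lists ran from −2.58 for mitochondrial protein genes, over −1.55 for chromatin regulators and −1.46 for nucleolar proteins, to −0.75 for translation factors and −0.49 for chaperones. With SRSF4 replicate 2 alone the medians of the RNA processing lists lay between −0.53 and 0.23, against −0.10 for all genes.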

How the data were processed

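The deposited files hold signed whole-number scores per genomic position. Per the file headers and the labels, the authors made these score values from reads processed with CASAVA 1.4 and mapped to mm9. The size of a score is the number of unique cDNAs and its sign the strand. Positions were listed at a false discovery rate under 0.05 (100 permutations, neighbourhood of 15 nt, Ensembl segments taken separately). The mapping tool was not given in the sources used here. Because positions below that threshold are not listed, 0 means that no position was listed. The columns are therefore no raw counts, and count models were not applied.

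Tags of 31 libraries were assigned by strand to genes and regions of the mm9 reference annotation, and clusters within 30 nt were merged into regions. Python 3.11.15 with numpy 2.4.6, scipy 1.17.1 and pandas 2.3.3, and R 4.3.3, were used. Genes and regions with at least 42.11 CPM (10 tags in the median library) in 3 or more libraries, and 15 tags in all, were tested with limma 3.58.1 (voom weights, library totals, a mean per protein over all libraries, Benjamini-Hochberg adjustment over all tested features). Shares were compared by exact two-sided permutation tests over the 20 arrangements of 3 against 3 libraries. Pentamer shares were tested with limma. The script was tested on simulated data.

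Named genes and regions were, in each direction, those called with the largest absolute log2 change, a mean of at least 100 CPM in the higher group and ranges that did not overlap (12 genes, 10 regions with at most 1 per gene), filled up for genes by smallest p. Srsf4, Srsf6 and the most tagged list members were always allowed. The members and lists were chosen with earlier results of these data known. SRSF4 and SRSF6 libraries with the same number had deviations that correlated at −0.00334, 0.0161 and 0.0340 over 6026 genes, so numbers do not pair the libraries. Replicates 2 and 5 of SRSF2 have headers that name SRSF1 and were kept as labelled. Files that sum the libraries of a protein served only for cluster coordinates. Intervals for single shares are not given, as they would cover counting error only.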

Additional observations from a re-analysis of the deposited data

How the results depend on the processing

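Differences are SRSF4 minus SRSF6 in percentage points. The 3′ UTR share of mRNA tags (14.1) was 10.3 by positions, 20.2 after thinning with 2 or more tags per position, and 11.2 with SRSF4 replicate 2 alone (13.1 to 15.5 with each library left out). After that thinning the first 10% of last exons (−10.5) was −18.0, last exons 17.3, coding sequence −12.8, introns 2.12 and purines −2.61. With SRSF4 replicate 2 alone, coding sequence was −11.6, 3′ UTR of all tags 5.45, exon ends 4.64 and purines −1.38. With each library left out, coding sequence ran from −35.7 to −21.3, last exons from 7.74 to 9.74, the first 10% of last exons from −12.0 to −9.58, introns from −1.50 to 0.147, 3′ UTR of all tags from −0.547 to 3.31, exon ends from −0.691 to 3.52 and purines from −0.989 to −0.384.

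Called genes (24) were 53 with trimmed-mean scaling, 149 with median ratios, 69 with coding totals, 452 with only the 6 libraries, 42 without SRSF2 replicates 2 and 5, 38 with limma-trend, 9 after thinning, 3 after thinning with 2 or more tags, 9 without a filter, 1 with SRSF4 replicate 2 alone, and 5 to 22 with each library left out. The 22 genes were those without SRSF4 replicate 2, the deep library. With only the 6 libraries, 433 of the 452 were higher for SRSF6. Called regions (306) were 867 with only the 6 libraries, 189 with limma-trend, 109 and 44 after thinning, 102 with a filter of 10 tags, 469 with run year as a term (445 higher for SRSF4), 0 with SRSF4 replicate 2 alone, and 61 to 261 with each library left out. The 261 regions were those without SRSF4 replicate 2. Other settings stayed within 1.5 times in number, among them run year as a term for genes (25, of which 24 were higher for SRSF4 and 8 were among the reported 24). Called pentamers (0) were 16 among the strongest positions, a set that took in every coding position of SRSF4 replicate 1. The cause was not tested. With the replicate number as a term (replicate block), 32 genes (28 and 4, 19 of them among the reported), 340 regions and 0 pentamers were called.

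Of 447 values for 26 named genes under these alternatives, 298 stayed on the same side of the threshold, 120 lost the call, 29 gained it and 0 turned direction. Of 293 values for 20 named regions, 199 stayed, 94 lost the call and 0 turned. Run year, SRSF4 replicate 2 alone, the 3′ UTR share of mRNA tags and the first 10% of last exons were added after seeing the data. Count-model alternatives were not run, as listed scores are signed and cut at a threshold. Depth limits the 2 shallow SRSF4 libraries, in which 0 says only that no position passed the listing threshold.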
